A study of Mus musculus with 10 samples.

Results

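The baseline of this study is the empty-vector population: mouse bone marrow progenitor cells transduced with MigR1, a retroviral vector that carries green fluorescent protein (GFP) and no other added gene in this group. The members are the 3 arrays of these cells of 10 arrays in the series. No other group enters the results. RNA was hybridised to Affymetrix mouse arrays, with 1 array per sample, and each value is the log2 fluorescence signal of a probe set, a group of short oligonucleotides aimed at 1 transcript. Marrow came from C57BL/6 mice aged 5 to 6 weeks. It was depleted of cells with mature lineage antigens and enriched for Sca1 on magnetic columns, then cultured with 20% fetal calf serum and the cytokines IL-3 (10 ng/ml), IL-6 (20 ng/ml) and stem cell factor, SCF (10 ng/ml). Virus was applied in a pair of rounds 24 hours apart. At 48 hours after the second round 25000 live cells that were GFP positive, lineage negative, Sca1 positive and cKit positive were sorted, and 50 ng of total RNA was amplified in successive rounds before labelling. The 3 samples are independent transductions per the labels. The sources used here do not say whether they came from different mice, so the SDs below measure the spread between these samples, which may be technical. The level of RNA in whole sorted populations was measured, so fewer cells of a type and less RNA per cell cannot be told apart.

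Lineage-negative, Sca1-positive, cKit-positive marrow holds blood stem cells and multipotent progenitors, which can form every blood lineage. SCF signals through the receptor Kit and keeps such cells alive. IL-3 drives division and myeloid differentiation through a specific alpha chain joined to a shared beta chain, and IL-6 signals through its own receptor joined to gp130. Early myeloid cells load primary granules with peroxidase and serine proteases, and later stages add secondary granule proteins, while erythroid, megakaryocytic, mast cell and lymphoid fates each have programs of their own.

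In these cells, ribosomal, translation and respiration genes had the highest list medians, and most primary granule, progenitor and cell division genes were above background. Genes of red cells, B cells, T and NK cells and stroma were above background in 38.1%, 36.8%, 21.1% and 9.52% of cases, against 50.8% of all genes, at the bound used here. With a lower bound, given below, the red cell and B cell shares lay near that of all genes. The transcript of Kit gave a signal near background in cells sorted for its protein. Lists of neutrophil, eosinophil and mast cell genes were split, with Chil3, Epx and Cpa3 above background on every array and Mmp8, Ccr3 and Tpsab1 on none.

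Background was set by 27 probe sets for bacterial genes (dap, lys, phe, thr and trp) that have no mouse target. Their highest value on the 3 arrays was 1.33, reached by a probe set for phe, and the next highest probe set among them reached 0.72. A gene is described as above the bound when its probe set exceeded 1.33 on all 3 arrays. A value under the bound says only that the probe set was not brighter than these controls. Where a gene has several probe sets, the one brightest on average over the 10 arrays stands for it. Probe sets differ in how well they bind, so the order of signals is not an order of transcript numbers. Values are means ± SD over 3 arrays (n = 3) or the values on replicates 1, 2 and 3 in that order.

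Of 18193 genes, 9242 (50.8%) were above the bound on all 3 arrays, 445 on 2 arrays, 651 on 1 array and 7855 on none. The 50.8% is the share to set beside each list count below. The median over all genes was 1.59, and over the genes above the bound it was 4.59. A signal over 8 was reached by 782 genes and one over 10 by 140. With the 95th percentile of the bacterial controls as the bound, 0.712, 12031 of 18193 genes were above it. Erythroid genes then gave 14 of 21, B lymphoid genes 12 of 19, T and NK genes 11 of 19, stromal genes 10 of 21 and lineage antigen genes 5 of 7. At the bound used here these counts were 8, 7, 4, 2 and 0. With the lower bound the erythroid, B lymphoid and lineage antigen shares lay near or above that of all genes. The T and NK and stromal shares lay below it. The 3 arrays had 9696, 9750 and 9821 genes above the bound. Across the 9242 genes above the bound on all 3 arrays, pairs of arrays correlated at 0.991, 0.990 and 0.989. Genes are not independent replicates. The median SD of a gene above the bound was 0.168. The 3′ minus 5′ difference of the Gapdh control probe sets, which reflects RNA integrity and amplification length, was 4.83, 4.97 and 4.99. For the actin control probe sets it was 5.76, 5.98 and 5.58. For both controls the 3′ probe set was thus far brighter than the 5′ one on each array. Whether this bias lowered the signal of other probe sets was not tested. Labelled spike-in controls averaged 8.73, 8.14 and 8.86 over 18 probe sets, lowest on replicate 2.

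**Figure D1:**
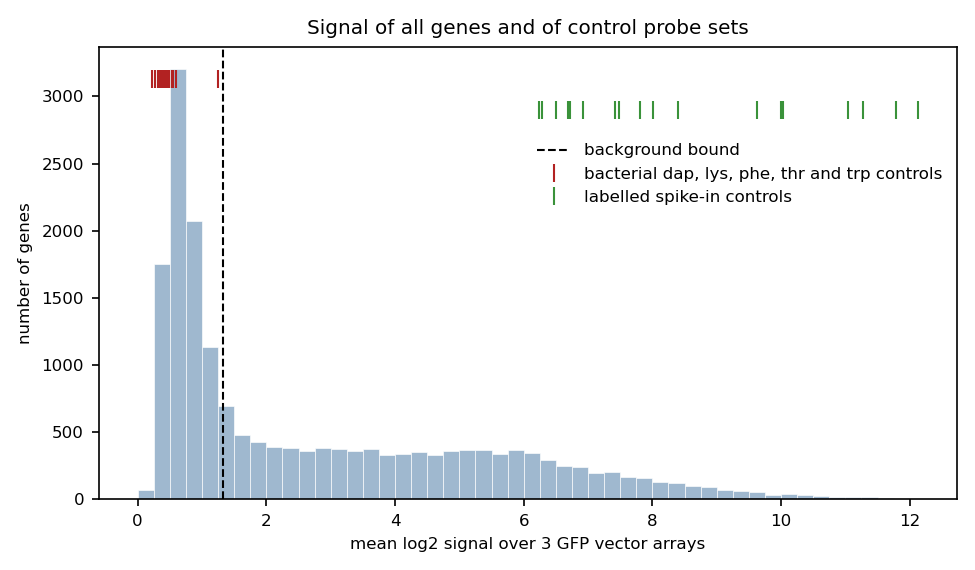
Number of genes (y axis) by mean log2 signal over the 3 GFP vector arrays (x axis), with the background bound as a dashed line and control probe sets as ticks. The bacterial controls lie at the low end, all at or below 1.33 on each array, the labelled spike-ins lie far above it, and 9242 of 18193 genes exceed the bound on all 3 arrays.

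The sort was checked against the genes of its own markers. Kit, the SCF receptor, gave 1.13, 1.33 and 1.11. Replicate 2 lay just above the bound and the other two lay below it. The second Kit probe set averaged 0.89 and was not above the bound on any array. The positions in the transcript that these probe sets target are not given in the sources used here. The transcript for Sca1 was not analysed here. Of 12 listed genes for antigens of lineage depletion or of mature blood cells, 7 were measured, and the rest could not be checked. Of the 7, 0 were above the bound on all 3 arrays, against 50.8% of all genes, with a list median of 1.05. At the lower bound of 0.712 the count was 5. The measured genes, all named next, are mostly T cell genes. Cd3e, a chain of the T cell receptor complex, gave 1.31, 1.07 and 1.54, with replicate 3 alone above the bound. Cd8a (1.19, 1.44 and 1.04) and Cd5 (1.05, 1.35 and 1.07), T cell coreceptor and scavenger receptor genes, were above it on replicate 2 alone. Cd4 (1.05), the B cell gene Ms4a1 (1.04), the myeloid integrin Itgam (0.53) and Cd2 (0.47) were above it on none.

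Progenitor genes were present across most of their list: 21 of 24 measured genes were above the bound (87.5%, against 50.8% of all genes), with a median of 4.79. Lmo2, an adaptor of the stem cell transcription complex, gave 9.36, 9.65 and 9.36. Hoxa9, a homeobox factor that maintains self-renewal, gave 7.49, 7.72 and 7.28, and its partner Meis1 gave 5.59, 5.70 and 5.27. On the probe sets used, all 3 arrays of each gene lay more than 3 log2 units above the bound, with replicate 2 the highest. The other Hoxa9 probe set was dimmer, at 2.38, 2.92 and 2.98, and highest on replicate 3.

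The surface molecules of early progenitors named next were above the bound on all 3 arrays. Cd34, a sialomucin of progenitors, gave 5.54, 5.05 and 4.79, highest on replicate 1. Flt3, a cytokine receptor of multipotent and lymphoid-primed progenitors, gave 5.20, 4.99 and 5.01, a range of 0.21. Procr, the protein C receptor found on stem cells, gave 3.52, 3.06 and 3.15, and Slamf1, another stem cell surface marker, gave 2.62, 2.34 and 2.41. Both were above the bound on every array but dim. Cd48, which marks progenitors rather than stem cells, averaged 5.74 ± 0.23, and Cd27, a tumour necrosis factor receptor family member, 3.47 ± 0.091. Esam, an adhesion molecule of stem cells and endothelium, averaged 2.72 ± 0.077.

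Among regulators of the same list, Sox4 averaged 6.09 ± 0.25, Erg 5.96 ± 0.15, Tal1 5.32 ± 0.087, Gata2 4.99 ± 0.20, Satb1 4.90 ± 0.41 and Mecom, a stem cell zinc finger factor, 4.68 ± 0.28. The stem cell factor Hlf gave 3.71, 4.36 and 4.32 and Hoxb4 gave 3.74, 3.88 and 3.87. The angiopoietin gene Angpt1 had the widest spread of the members above the bound, with 4.00, 4.18 and 3.29, lowest on replicate 3. Myct1 gave 4.37, 4.97 and 4.24. Tek, the angiopoietin receptor of stem cells and endothelium, gave 1.43, 1.80 and 0.99, above the bound on replicates 1 and 2 only. Fgd5, a gene used to mark stem cells, was above it on no array (0.90, 1.05 and 1.15).

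The strongest signal of this list belonged to Mycn, a Myc family transcription factor, with 11.29, 11.27 and 11.29. Its other probe sets averaged 4.02 and 0.75. These 3 probe sets of 1 gene span nearly the whole range of the array, so the level of Mycn cannot be read from them.

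**Figure D2:**
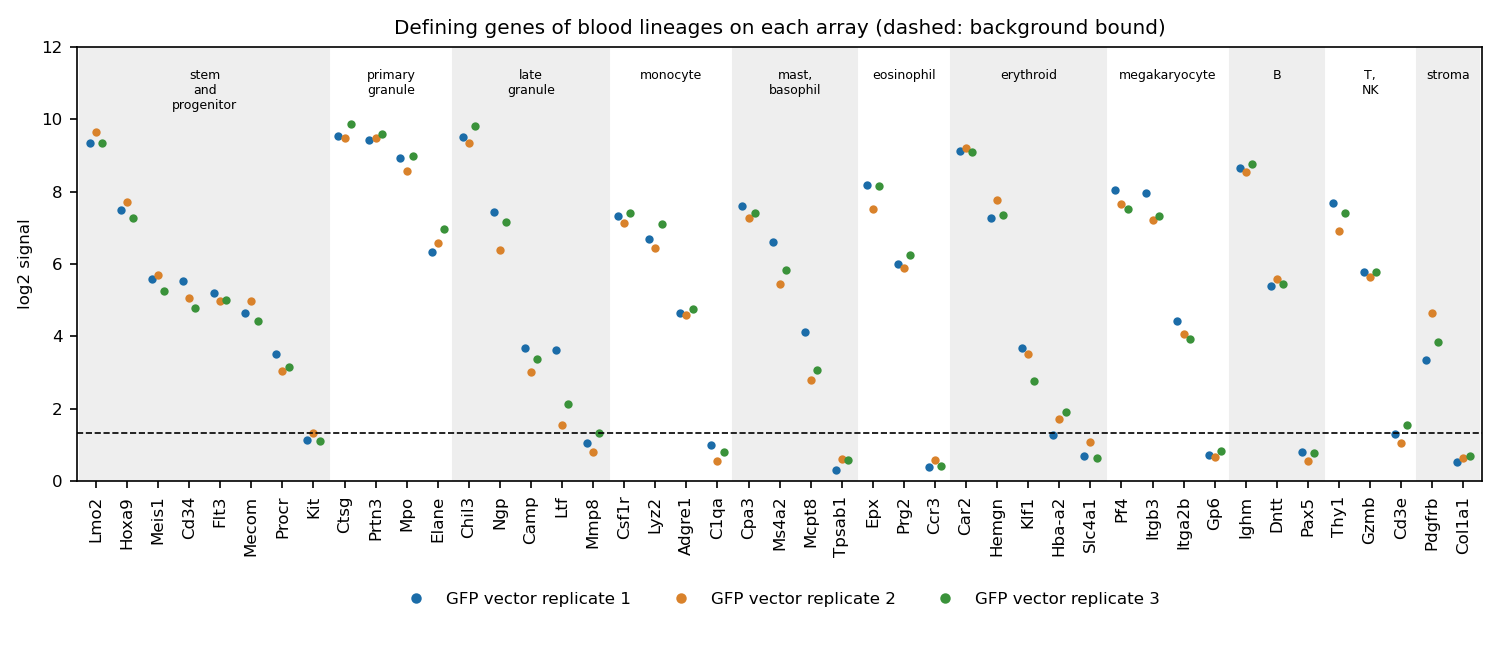
Log2 signal (y axis) of defining genes of blood lineages (x axis) on each of the 3 GFP vector arrays (coloured points), with the background bound as a dashed line. Ctsg, Prtn3, Mpo, Chil3, Epx, Cpa3 and Car2 lie above 7 on every array, whereas Kit, Mmp8, C1qa, Tpsab1, Ccr3, Slc4a1, Gp6, Pax5 and Col1a1 lie at or near the bound or below it.

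Primary granule genes formed the only blood lineage list with every measured member above the bound, 16 of 16, and their median was 7.90. Ctsg, which encodes the serine protease cathepsin G, gave 9.54, 9.50 and 9.87. Prtn3, which encodes proteinase 3, gave 9.44, 9.47 and 9.61. Mpo, which encodes myeloperoxidase, the enzyme that makes hypochlorous acid, gave 8.94, 8.58 and 8.99. For these 3 genes the arrays lay within 0.38, 0.17 and 0.40 of each other, and none came near the bound. Elane, which encodes neutrophil elastase, gave 6.32, 6.59 and 6.97, lowest on replicate 1 and highest on replicate 3.

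The brightest members included proteins that are not exclusive to granules. Calr, an endoplasmic reticulum chaperone, averaged 10.34 ± 0.17, and Srgn, the proteoglycan core that packs granule proteases, 10.28 ± 0.046. Plac8, a gene of early myeloid progenitors, averaged 9.90 ± 0.22. Ms4a3, a marker of granulocyte and monocyte progenitors, averaged 8.73 ± 0.22. Ctsc, which encodes the protease that activates granule serine proteases, averaged 7.88 ± 0.15, and Serpinb1a, which encodes an inhibitor of elastase, 7.61 ± 0.16. The dimmest members were Igsf6 (4.21 ± 0.26), Cebpa and Anxa1 (5.98 ± 0.076). Cebpa, the transcription factor that directs granulocyte and monocyte commitment, gave 5.11, 5.74 and 6.06 and had the widest spread of the list.

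The stretches below show 200 bases before the RefSeq start of 4 of these granule protease genes (GRCm38.p6). Ctsg, Prtn3 and Elane are defining members of the primary granule list and Cpa3 leads the mast cell list described below, and they are shown because each holds a marked match. The same stretch of Mpo, another defining member, holds neither of the marked motifs. Capitals mark letters searched for on both strands: TGTGGT, the core bound by RUNX factors (read as ACCACA on the other strand), in Ctsg and Cpa3, and GAGGAAGT, a site of the PU.1 type, in Prtn3 and Elane. No marked match overlaps another. Ctsg lies on the minus strand at chr14:56102575-56102774, Cpa3 on the minus strand at chr3:20242182-20242381, Prtn3 on the plus strand at chr10:79879467-79879666 and Elane on the plus strand at chr10:79886112-79886311.
Ctsg: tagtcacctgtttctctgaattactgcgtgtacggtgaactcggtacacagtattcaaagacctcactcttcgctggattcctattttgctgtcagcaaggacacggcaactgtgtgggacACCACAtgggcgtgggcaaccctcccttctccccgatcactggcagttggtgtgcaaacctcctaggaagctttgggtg
Cpa3: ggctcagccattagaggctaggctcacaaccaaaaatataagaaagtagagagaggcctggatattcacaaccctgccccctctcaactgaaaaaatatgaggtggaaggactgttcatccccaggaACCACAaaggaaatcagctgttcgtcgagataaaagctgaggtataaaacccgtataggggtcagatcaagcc
Prtn3: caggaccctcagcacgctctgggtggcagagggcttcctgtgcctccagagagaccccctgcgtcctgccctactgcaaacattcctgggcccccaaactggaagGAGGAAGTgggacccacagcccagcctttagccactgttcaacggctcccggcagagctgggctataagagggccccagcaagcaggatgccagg
Elane: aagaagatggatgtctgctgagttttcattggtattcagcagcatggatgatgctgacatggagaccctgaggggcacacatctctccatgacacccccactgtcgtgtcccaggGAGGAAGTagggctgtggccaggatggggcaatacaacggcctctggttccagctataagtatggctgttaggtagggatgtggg

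In the 250 bases before the start, TGTGGT was present in 4 of 15 primary granule genes with a promoter in the table (26.7%: Cst7, Ctsg, Nkg7 and Plac8), against 14.2% of all 27025 promoters and 10.6% of the 7594 promoters of genes above the bound. GAGGAAGT was present in 4 of 15 (Ctsc, Elane, Mpo and Prtn3), against 2.44% of all promoters and 2.53% of those of genes above the bound. In the mast cell and basophil list TGTGGT was present in 7 of 15 promoters (46.7%), GAGGAAGT in 0 of 15, and AGATAA, the core bound by GATA factors, in 6 of 15, against 10.3% of all promoters and 5.58% of those of genes above the bound. AGATAA was in 0 of 15 primary granule promoters. In the list of late neutrophil genes AGATAA was present in 4 of 13 promoters (30.8%) and GAGGAAGT in 3 of 13 (23.1%). TGTGGT was in 2 of 13 (15.4%), near the share of all promoters. Among eosinophil genes AGATAA was in 2 of 5, TGTGGT in 1 of 5 and GAGGAAGT in 0 of 5. Monocyte and macrophage promoters held TGTGGT in 2 of 19 (10.5%), AGATAA in 2 of 19 and GAGGAAGT in 0 of 19. Erythroid promoters held AGATAA in 4 of 16, TGTGGT in 3 of 16 (18.8%) and GAGGAAGT in 0 of 16. The list counts include genes that were not above the bound. Both eosinophil AGATAA matches, Ccr3 and Il5ra, were above it on no array. The same held for Itgb2l and Mmp8 among the late neutrophil GAGGAAGT matches. It also held for Il13, Mcpt1 and Mcpt4 among the mast cell and basophil TGTGGT matches. TTGCNNCAA, a C/EBP type site, was in 1 of 15 primary granule promoters, that of Ms4a3, and in 1.78% of all promoters. The motifs were chosen after the signals were known. A match is a run of letters and not a site shown to be bound, and no factor binding was measured.

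The genes of secondary granules and mature neutrophils were split: 10 of 15 were above the bound (66.7%, against 50.8% of all genes), with a median of 3.33. Chil3, which encodes a chitinase-like lectin of myeloid cells, gave 9.50, 9.35 and 9.81, far above the bound on every array. Ngp, the neutrophilic granule protein gene, gave 7.45, 6.39 and 7.15, lowest on replicate 2. S100a8 averaged 6.21 ± 0.23 and its partner S100a9 4.94 ± 0.43, both genes of calcium-binding proteins of neutrophils and monocytes. Cybb, the catalytic subunit of the phagocyte oxidase, averaged 5.94 ± 0.14, and Hp, haptoglobin, 5.41 ± 0.29.

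The other measured genes of this list had lower signals. Camp, the cathelicidin gene, gave 3.69, 3.02 and 3.38, and Lcn2, lipocalin 2, gave 3.19, 3.34 and 3.46. Ltf, lactoferrin, gave 3.63, 1.54 and 2.12, and replicate 1 stood well above the other two. Its range of 2.09 was the largest of any gene above the bound. Fcnb, a ficolin, averaged 2.04 ± 0.18. Cd177, a neutrophil surface glycoprotein, was above the bound on replicate 1 alone (1.41, 0.83 and 1.27). Itgb2l, the collagenase gene Mmp8, the gelatinase gene Mmp9 and the chemokine receptor gene Cxcr2 were above it on no array, with means of 1.21, 1.06, 0.70 and 0.77.

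**Figure D3:**
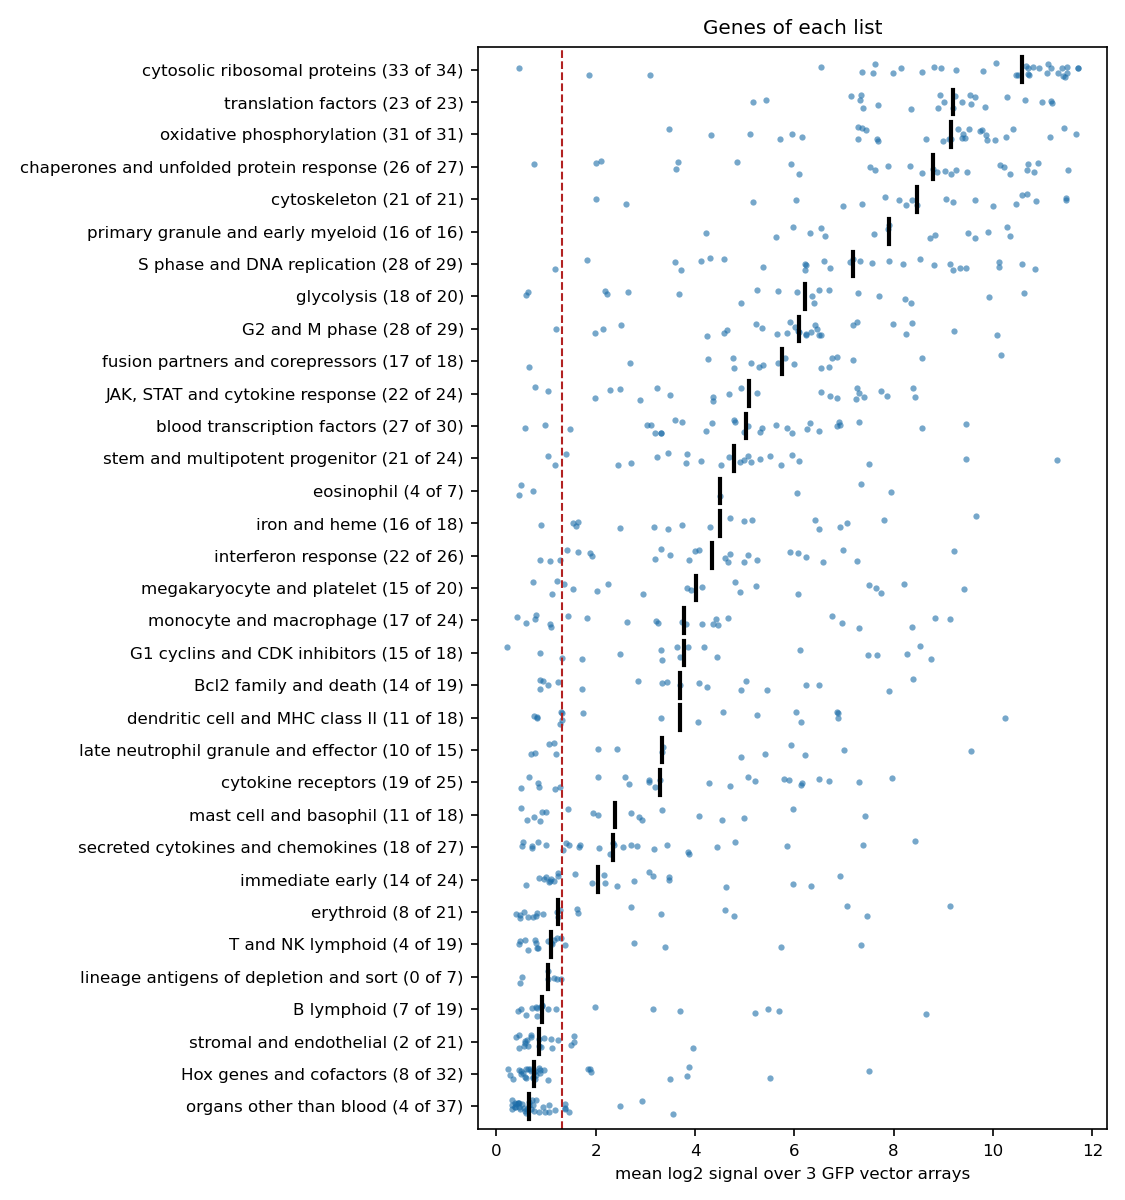
Mean log2 signal over the 3 GFP vector arrays (x axis) of every measured gene (dot) of each list (y axis, in brackets the members above the bound on all 3 arrays of those measured), with the list median as a bar and the background bound as a dashed line. Ribosomal, translation and respiration genes lie at the top, primary granule genes have a median of 7.90, and erythroid, lymphoid, stromal and Hox genes have medians at or below the bound.

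Monocyte and macrophage genes were above the bound in 17 of 24 cases (70.8%, against 50.8% of all genes), with a median of 3.79. Csf1r, the receptor for macrophage colony-stimulating factor, gave 7.33, 7.14 and 7.41, though its other probe sets averaged 4.13 and 2.62. The lysozyme gene Lyz1 gave 9.09, 8.97 and 9.37 and Lyz2 gave 6.70, 6.45 and 7.12. These near-identical genes may share probes, so the split between them is uncertain. Lgals3, a galectin of macrophages, averaged 8.83 ± 0.35, the lysosomal protease gene Ctss 8.37 ± 0.056, and the signalling adaptor Tyrobp 6.97 ± 0.25.

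Surface and resident macrophage genes were dimmer. Adgre1, which encodes the F4/80 antigen, averaged 4.66 ± 0.079, Cd68 3.83 ± 0.15, the endotoxin co-receptor gene Cd14 3.21 ± 0.34 and the chemokine receptor gene Cx3cr1 1.82 ± 0.33. Ccr2, the receptor that brings monocytes out of marrow, was above the bound on replicates 1 and 2 (1.56, 1.48 and 1.27), and Klf4 on replicate 3 alone (0.72, 1.04 and 1.46). The complement genes C1qa (0.78) and C1qb (0.80), and the scavenger receptor genes Marco (0.59) and Cd163 (0.41), were above it on none. Fcgr1, an Fc receptor gene, gave 1.08, 0.96 and 1.26, all below the bound, while its other probe set reached 1.42 on replicate 2 alone.

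Genes of MHC class II, which present antigen on dendritic cells, B cells and macrophages, were bright on the probe sets used. H2-Aa gave 10.32, 10.10 and 10.33, though its 4 probe sets averaged from 2.57 to 10.25. H2-Ab1 gave 7.17, 6.76 and 6.72, but its other probe sets averaged 1.87 and 2.11. Cd74, the invariant chain, gave 7.35, 6.72 and 6.55. On the probe sets used, H2-Ab1 and Cd74 were highest on replicate 1. H2-Eb1 averaged 6.13 ± 0.39, H2-DMa 6.03 ± 0.12 and Tcf4, the E protein of plasmacytoid dendritic cells, 6.85 ± 0.11. The other H2-DMa probe set averaged 2.16. Ciita, the class II transactivator, was dim, at 1.52, 2.34 and 1.41. The list as a whole had 11 of 18 members above the bound (61.1%, near the 50.8% of all genes), with a median of 3.69.

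Genes of the dendritic cells themselves were split. Ly6d (1.07, 1.50 and 1.41) and the integrin gene Itgax (1.49, 1.11 and 1.38) were above the bound on 2 arrays each. Siglech, of plasmacytoid dendritic cells, was above it on replicate 1 alone (1.35, 1.23 and 1.30), as was Cd80 (1.57, 1.03 and 1.24). The conventional dendritic cell genes Xcr1 (0.77), Zbtb46 (0.82) and Cd209a (0.83) were above it on none. The chemokine receptor gene Ccr7 averaged 5.24 ± 0.31, the costimulatory gene Cd86 4.56 ± 0.24 and the transcription factor gene Batf3 4.07 ± 0.36.

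Of mast cell and basophil genes 11 of 18 were above the bound (61.1%, near the 50.8% of all genes), with a median of 2.38. Cpa3, the carboxypeptidase of mast cell granules, gave 7.62, 7.26 and 7.41, and Ms4a2, the beta chain of the high-affinity IgE receptor, gave 6.61, 5.45 and 5.83. The alpha chain gene Fcer1a gave 3.33, 2.80 and 2.67. All were highest on replicate 1. Hdc, which makes histamine, averaged 4.07 ± 0.22, the monoamine transporter gene Slc18a2 4.55 ± 0.39, Mitf 2.87 ± 0.079 and Il4 2.72 ± 0.29. Mcpt8, the basophil protease, gave 4.13, 2.80 and 3.06, and replicate 1 again stood above the others.

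The proteases of mature mast cells were near background. Cma1 (1.94, 1.18 and 1.21) and Mcpt2 (1.57, 0.68 and 0.49), both chymases, were above the bound on replicate 1 alone. Mcpt1 (0.76), Mcpt4 (0.89) and the tryptases Tpsab1 (0.50) and Tpsb2 (0.62), together with Il13 (1.00), were above it on no array.

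Eosinophil genes gave 4 of 7 above the bound (57.1%, near the 50.8% of all genes). Epx, the eosinophil peroxidase, gave 8.18, 7.52 and 8.16, and the major basic protein genes Prg3 and Prg2 gave 7.33, 6.91 and 7.76 and 6.01, 5.90 and 6.26. All 3 granule genes were lowest on replicate 2. Siglecf, a surface lectin of eosinophils, averaged 4.51 ± 0.28. The surface receptors of mature eosinophils were not above the bound on any array: Il5ra averaged 0.49 and Ccr3 0.46, and the lipoxygenase gene Alox15 averaged 0.73.

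Several of these granule genes sit beside each other in the genome. Among the protease genes of chromosome 14, in the order of the GRCm38.p6 annotation, Cma1, Mcpt1, Mcpt2 and Mcpt4 had means from 0.76 to 1.44, the next measured gene, Mcpt8, 3.33, and its neighbour Ctsg 9.64. The 6 granzyme genes that follow, Gzme, Gzmd, Gzmg, Gzmn, Gzmf and Gzmc, all had means at or below 0.50. Gzmb, at the end of the row, averaged 5.73. On chromosome 11, Mpo (8.84) and Epx (7.95) flank Lpo, the lactoperoxidase gene, which averaged 0.64 and was not above the bound on any array. Prtn3 and Elane are neighbours on chromosome 10, and Prg2 and Prg3 on chromosome 2. In each pair both genes were above the bound on every array.

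**Figure D4:**
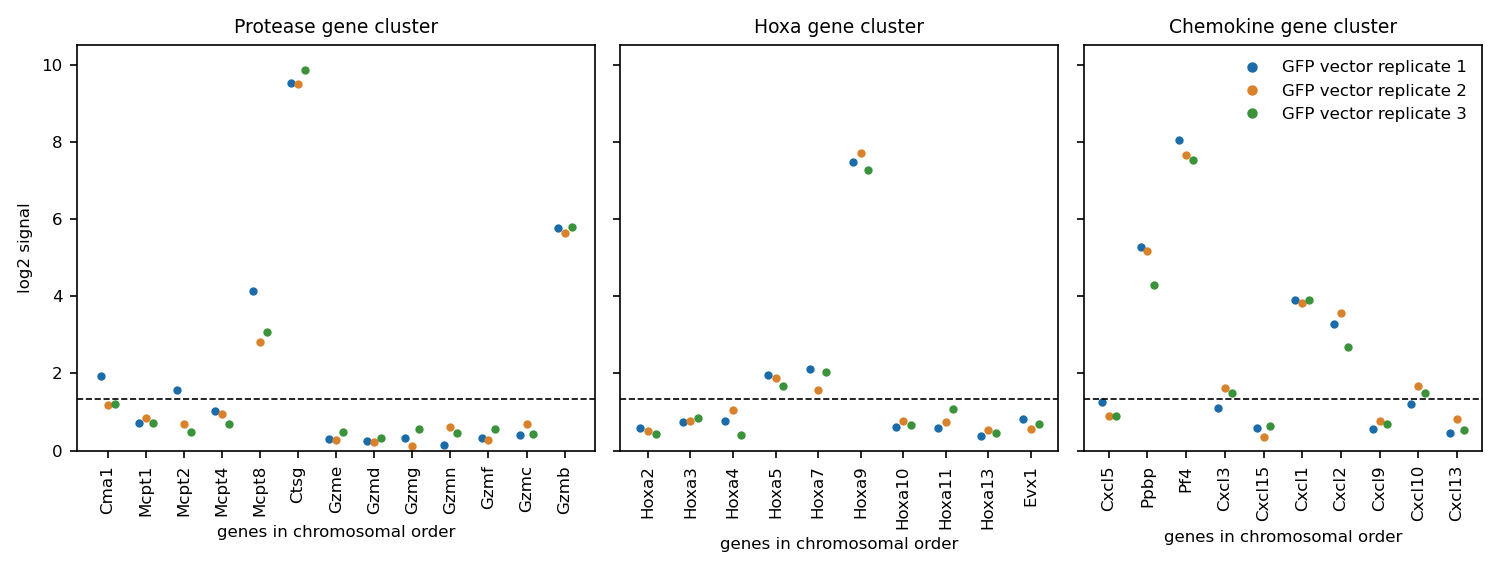
Log2 signal (y axis) of measured genes in chromosomal order (x axis, not to distance) in 3 gene clusters on each GFP vector array (coloured points), with the background bound as a dashed line. The genes above the bound on all 3 arrays are Mcpt8, Ctsg and Gzmb in the protease cluster, Hoxa5, Hoxa7 and Hoxa9 in the Hoxa cluster, and the adjacent pairs Ppbp with Pf4 and Cxcl1 with Cxcl2 in the chemokine cluster.

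The Hox genes, homeobox factors that lie in clusters, were mostly below the bound. Of the measured Hoxa genes, Hoxa9 gave 7.50, Hoxa5 1.84 and Hoxa7 1.91, and these were the only ones above the bound. Hoxa7 and Hoxa9 are neighbours, and Hoxa10, on the other side of Hoxa9, averaged 0.67. Of the Hoxb genes the neighbours Hoxb4 (3.83) and Hoxb3 (1.89) were above it. None of the measured Hoxc and Hoxd genes were, among them Hoxc8 (0.28) and Hoxd9 (0.95). With the cofactors Meis1, Pbx2 (3.51 ± 0.23) and Pbx3 (3.89 ± 0.40), the Hox list had 8 of 32 members above the bound, against 50.8% of all genes. With the bound raised by 1 the list had 5. Hoxb1 was the dimmest (0.23).

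Erythroid genes were above the bound in 8 of 21 cases (38.1%), with a median of 1.24. The brightest were early or shared genes: Car2, a carbonic anhydrase, gave 9.12, 9.20 and 9.09, Hemgn, a nuclear protein of immature blood cells, gave 7.27, 7.78 and 7.36, and Tfrc, the transferrin receptor, gave 7.45, 6.83 and 6.92. The transcription factor gene Gata1 averaged 4.79 ± 0.10, the water channel gene Aqp1 4.61 ± 0.13 and Ank1 2.72 ± 0.086. Klf1, the erythroid Krüppel-like factor, gave 3.67, 3.52 and 2.75, lowest on replicate 3. Alas2, the erythroid enzyme that begins heme synthesis, averaged 1.64 ± 0.21.

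Measured globin genes, and red cell genes other than those above, were near or below the bound. Hba-a2, an adult alpha globin, was above it on replicates 2 and 3 (1.28, 1.71 and 1.91), and Hba-a1 on none (0.36, 0.48 and 0.36). The globin genes are near-identical and may share probes. Epor (1.43, 1.19 and 1.22) and Ermap (1.62, 1.09 and 1.01) were above the bound on replicate 1 alone and Car1 on replicate 3 alone (1.10, 1.16 and 1.41). The anion exchanger gene Slc4a1 (0.79), Epb42 (0.74), Rhag (0.48), Rhd (0.94), Add2 (0.83) and the embryonic globins Hbb-y (0.48), Hbb-bh1 (0.64) and Hba-x (0.57) were above it on no array. The adult beta globin genes were not analysed here.

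Megakaryocyte and platelet genes were more often above the bound, 15 of 20 (against 50.8% of all genes), with a median of 4.03. F2r, the thrombin receptor, gave 9.44, 9.63 and 9.16. Pf4, platelet factor 4, gave 8.05, 7.67 and 7.53, and its neighbour Ppbp, the platelet basic protein, gave 5.26, 5.18 and 4.30. Itgb3 and Itga2b, which encode the chains of the fibrinogen receptor, gave 7.97, 7.21 and 7.34 and 4.41, 4.07 and 3.93. Plek, pleckstrin, averaged 8.21 ± 0.15 and the transcription factor gene Nfe2 7.64 ± 0.044. Selp, which encodes P-selectin, averaged 6.07 ± 0.091, and Vwf, von Willebrand factor, gave 3.46, 2.94 and 2.48. Mmrn1, multimerin, had the widest spread (3.70, 4.58 and 3.25).

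Other platelet genes ranged from below the bound to moderate signals. Gp1bb averaged 3.92 ± 0.25, Treml1 2.25 ± 0.23 and Gp9 2.04 ± 0.49. Tubb1, the platelet tubulin, was above the bound on replicates 2 and 3 (1.24, 1.67 and 1.72), as was Gp5 (1.32, 1.42 and 1.37), and Thbs1 on replicate 3 alone (1.05, 1.17 and 1.44). Clec1b (1.13) and Gp6, the collagen receptor (0.75), were above it on none.

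B lymphoid genes were above the bound in 7 of 19 cases (36.8%), with a median of 0.93. Ighm, the immunoglobulin mu heavy chain, gave 8.66, 8.53 and 8.77, and 3 of its 11 probe sets were above the bound. Dntt, the DNA polymerase of early lymphoid progenitors, gave 5.39, 5.59 and 5.45. Its other probe sets averaged 1.02 and 0.98 and were above the bound on no array. Il7r, the interleukin 7 receptor, gave 5.31, 5.17 and 5.13. Cd79b averaged 5.69 ± 0.23, the adaptor gene Blnk 3.70 ± 0.19, Fcer2a 3.16 ± 0.24 and the surrogate light chain gene Vpreb1 1.99 ± 0.31. Vpreb3 was above the bound on replicates 2 and 3 (0.86, 1.34 and 1.38).

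The factors and enzymes that commit cells to the B lineage were not above the bound on any array. Pax5 averaged 0.72, Ebf1 0.79, Pou2af1 0.45, Rag1 0.50 and Rag2 0.59, and Cd79a, the partner of Cd79b, 0.91. In the T and NK list 4 of 19 were above the bound, with a median of 1.10. They were Thy1, a surface glycoprotein of T cells (7.68, 6.91 and 7.42), the granzyme gene Gzmb (5.77, 5.63 and 5.79), the kinase gene Zap70 (3.37, 3.39 and 3.44) and the T-box factor gene Eomes (2.28, 3.10 and 2.94). Cd28 was above the bound on replicate 2 alone (1.25, 1.91 and 0.96). Cd3g (0.45), Gata3 (0.58), Tbx21 (0.64), Bcl11b (0.81) and Prf1 (1.10) were above it on none.

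Stromal and endothelial genes, which mark marrow cells that the culture and sort should leave out, were above the bound in 2 of 21 cases (9.52%). Their summed signal was 20.5, 21.9 and 21.5. Pdgfrb, a growth factor receptor of stroma, gave 3.34, 4.65 and 3.86, although its other probe set averaged 1.37. Fn1, fibronectin, gave 1.48, 1.66 and 1.37. Acta2 (1.22, 1.35 and 2.14) and Vcam1 (1.32, 1.81 and 1.54) were above the bound on replicates 2 and 3. Col1a2 (1.27, 1.37 and 1.09) and Bgn (1.16, 1.36 and 0.81) were above it on replicate 2 alone, and Kdr on replicate 1 alone (1.34, 1.10 and 0.93). Col1a1 (0.62), Col3a1 (0.46), Cdh5 (0.71), Emcn (0.39), Postn (0.45) and Cxcl12 (0.55) were above it on none.

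As a check on the bound, 37 genes restricted to organs other than blood were examined, and 4 (10.8%) were above it: Cela1 (3.56 ± 0.14), Krt10 (2.94 ± 0.17), Camk2a (2.50 ± 0.13) and Ttr (1.46 ± 0.088). Pmel (1.17, 1.45 and 1.55) and Prm1 (1.25, 1.33 and 1.56) were above it on replicates 2 and 3, Ins2 on replicate 3 alone (1.29, 1.29 and 1.55) and Apoa1 on replicate 1 alone (1.34, 0.94 and 1.29). The other 29 genes, such as albumin, Alb (0.86), the lens crystallin Crygb (0.31), glucagon, Gcg (0.32), and uromodulin, Umod (0.32), were above it on none. A stromal share of 9.52% is therefore close to the share in this check, and the T and NK share of 21.1% lies between it and that of all genes. Xist, the transcript that coats the inactive X chromosome, gave 6.89, 7.26 and 6.75, whereas the Y-linked genes Kdm5d (0.59), Uty (0.56) and Eif2s3y (0.32) were above the bound on no array.

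The transcription factors that govern blood formation were above the bound in 27 of 30 cases (90.0%), with a median of 5.02. Runx1, the gene whose product is the AML1 part of the fusion protein studied in this series, gave 5.86, 5.90 and 5.81. Its 6 probe sets averaged from 1.03 to 5.86. Cbfb, the partner that stabilises RUNX proteins on DNA, gave 8.69, 8.53 and 8.47, and Runx3 averaged 5.06 ± 0.045. Ikzf1 averaged 7.30 ± 0.078, Myc 6.91 ± 0.21, Lyl1 6.89 ± 0.18, Etv6 6.50 ± 0.20, Myb 6.31 ± 0.12 and Bmi1 6.25 ± 0.16.

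Spi1, which encodes the myeloid and lymphoid factor PU.1, was modest at 2.80, 2.97 and 3.32. Gfi1b, of erythroid and megakaryocytic cells, averaged 5.34 ± 0.085, and Gfi1, of granulocytes and stem cells, 3.32 ± 0.16. Irf8, which favours monocytes, averaged 3.74 ± 0.26, Cebpb 3.12 ± 0.28, Cebpd 3.59 ± 0.24 and Id2 3.20 ± 0.20. Ldb1 was above the bound on replicate 1 alone (1.98, 1.22 and 1.24), and Id1 on none (1.01, 0.72 and 1.21).

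Runx1t1, the gene that supplies the ETO part of the fusion, was at background in these control cells. It gave 1.03, 0.42 and 0.50, and none of its 6 probe sets was above the bound. Its relatives Cbfa2t2 and Cbfa2t3 gave 6.09, 5.64 and 5.70 and 4.97, 4.82 and 4.59, above the bound on every array. In the list of fusion partner and corepressor genes 17 of 18 were above the bound, against 50.8% of all genes. Sin3b averaged 10.15 ± 0.049, the deacetylase genes Hdac1 7.19 ± 0.18, Hdac2 6.70 ± 0.29 and Hdac3 4.26 ± 0.17, and Sin3a 4.77 ± 0.17. The E protein gene Tcf12 averaged 6.85 ± 0.20, the acetyltransferase genes Crebbp 6.77 ± 0.20 and Ep300 5.37 ± 0.11, the demethylase gene Kdm1a 5.99 ± 0.10, and Gps2 2.70 ± 0.12.

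Receptor genes for the 3 cytokines of the culture medium were not all above the bound. For IL-3, the shared beta chain gene Csf2rb gave 8.21, 7.78 and 7.89 and the IL-3-specific beta chain gene Csf2rb2 gave 6.26, 6.00 and 6.18. The alpha chain gene Il3ra gave 0.97, 0.69 and 0.85, from a single probe set that was above the bound on no array. For IL-6, Il6ra gave 3.17, 3.07 and 2.98 and Il6st, which encodes gp130, gave 4.86, 4.53 and 4.72. For SCF, Kit was at background as described.

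Over the whole receptor list 19 of 25 genes were above the bound (76.0%, against 50.8% of all genes), with a median of 3.30. Il1r1 averaged 6.69 ± 0.23, the tumour necrosis factor receptors Tnfrsf1a 6.49 ± 0.12 and Tnfrsf1b 5.80 ± 0.26, and the interferon receptor chains Ifnar2 6.13 ± 0.089 and Ifngr2 5.89 ± 0.44. Csf3r, the granulocyte colony-stimulating factor receptor, averaged 3.19 ± 0.038, Csf2ra 2.59 ± 0.060 and Cxcr4 3.07 ± 0.16. Il10ra (0.86) and Il2ra (0.67) were above the bound on no array.

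Downstream of these receptors 22 of 24 JAK, STAT and response genes were above the bound (against 50.8% of all genes), with a median of 5.09. The kinase genes Jak2 and Jak1 gave 8.05, 7.81 and 7.74 and 7.78, 7.63 and 7.81. The feedback inhibitors that STAT5 induces were bright: Cish gave 7.21, 7.22 and 7.34 and Socs2 gave 6.96, 7.70 and 7.57, while Socs3 averaged 6.55 ± 0.18 and Socs1 was not above the bound on any array (1.03, 1.10 and 0.97). The kinase genes Pim1 and Pim3 averaged 7.25 ± 0.089 and 8.43 ± 0.084, and the survival gene Mcl1 8.39 ± 0.10. Stat6 averaged 5.24 ± 0.076, Stat3 4.36 ± 0.23, Stat5a 3.23 ± 0.18 and Stat5b 2.89 ± 0.22. Spry2 (0.78) was above the bound on no array.

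Genes of cell division were above the bound nearly throughout. For S phase it was 28 of 29 genes, with a median of 7.17, and for G2 and M phase 28 of 29, with a median of 6.09. The share of all genes was 50.8%. Pcna, the sliding clamp of DNA polymerase, gave 10.00, 10.28 and 10.07, and Mcm7, of the replicative helicase, gave 10.12, 10.09 and 10.15. The flap endonuclease gene Fen1 gave 10.82, 10.81 and 10.90, but its other probe set averaged 2.77, so its level is uncertain. Rpa1 averaged 10.59 ± 0.088, Mcm5 9.45 ± 0.21 and Rrm1 9.34 ± 0.090. Mki67, the proliferation antigen, gave 10.20, 10.11 and 9.96 and Top2a, topoisomerase II alpha, gave 9.35, 9.04 and 9.27. Ccna2 averaged 8.36 ± 0.056, Cdc20 8.24 ± 0.048 and Ccnb2 7.26 ± 0.043, and the checkpoint gene Mad2l1 gave 8.08, 7.89 and 8.02.

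The dimmest cycle genes were Rfc3, above the bound on replicate 2 alone (1.14, 1.42 and 0.99), and Cdc25b, above it on none (1.20, 1.15 and 1.27). Tyms (1.82), Birc5 (1.98) and Plk1 (2.14) were above it but low. Among G1 regulators Cdk4 averaged 8.75 ± 0.25, Ccnd2 8.53 ± 0.074, Cdk6 8.27 ± 0.19 and Ccne1 6.11 ± 0.100. Of the inhibitors, Cdkn1a, which encodes p21, gave 7.88, 7.44 and 7.66. Cdkn1b, which encodes p27, was at background (0.89, 0.98 and 0.76), as was Cdkn2a (0.16, 0.19 and 0.30). Cdkn2b was above the bound on replicates 2 and 3 (1.11, 1.42 and 1.45). Cdkn1c, which encodes p57 and is associated with quiescent stem cells, averaged 2.49 ± 0.34.

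Many of the brightest genes were those of ribosomes and respiration. Of the 30 with the highest signal, 12 encoded cytosolic ribosomal proteins, and of the highest 100, 24 did. The ranking depends on the probe set: of the 50 brightest genes, 18 remained when all probe sets of a gene were averaged and 26 without suffixed probe sets. The ribosomal genes among the 30 were Rps7 (11.72), Rps2 (11.70), Rpl7a (11.65), Rps14 (11.48), Rps3 (11.48), Rps18 (11.45), Rpsa (11.42), Rps29 (11.40), Rps28 (11.40), Rpl38 (11.32), Rpl6 (11.17) and Rps4x (11.11). Respiration gave Cox5b (11.66) and Cox6a1 (11.42) of cytochrome oxidase, Uqcrb (11.46) of complex III and Atp5c1 (11.16) of ATP synthase.

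The others had varied roles. C1qbp, a mitochondrial matrix protein, had the highest mean, 11.88, but its other probe set averaged 8.63. Ran (11.68) drives nuclear transport, Hspa8 (11.51) is the constitutive heat shock chaperone, Tmsb10 (11.47) and Cfl1 (11.46) regulate actin, and Nme2 (11.29) makes nucleoside triphosphates. H2az1 (11.23) is a histone variant, Ybx1 (11.22) and Pabpn1 (11.13) bind RNA, Eef1a1 (11.19) delivers tRNA to the ribosome, and Tpt1 (11.18) and Hax1 (11.12) are linked to growth and survival. Tuba4a, a tubulin, gave 11.64, with other probe sets at 5.48 and 2.74. Mycn completed the 30. Over these 30 genes the largest range between arrays was 0.254.

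The ribosomal list had 33 of 34 members above the bound, with a median of 10.58. In the wider family, from which the counts among the brightest were taken, 50 of 57 measured genes were above it, 7 were on no array, and the median was 8.97. In the list Rps16 was the exception (0.38, 0.46 and 0.55), and Rps27 (1.92, 1.80 and 1.87) and Rpl37 (3.12, 3.08 and 3.10) were dim. The members of 1 complex thus ranged from 0.46 to 11.72, nearly the whole range of the array. Translation factors were above the bound in 23 of 23 cases, with Pabpc1 at 10.99 ± 0.048, Eif3e at 10.64 ± 0.11, Npm1 at 10.28 ± 0.13 and Eif5a at 9.84 ± 0.16. The dimmest were Fbl (5.43 ± 0.16) and Eif4a2 (5.18 ± 0.28).

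Respiratory chain genes were above the bound in 31 of 31 cases, with a median of 9.15, and Ndufb9 (10.41 ± 0.078) and Ndufv2 (10.25 ± 0.100) of complex I were among the brightest. Uqcrh (3.47 ± 0.11) was the dimmest. In glycolysis 18 of 20 were above it (against 50.8% of all genes), with a median of 6.21. Pgk1 averaged 10.62 ± 0.086, Ldha 9.91 ± 0.15, Aldoa 8.34 ± 0.043 and Tpi1 8.23 ± 0.13. Of the hexokinases, Hk3, the isoform of myeloid cells, gave 7.15, 7.28 and 7.40, Hk1 5.15, 5.27 and 5.31 and Hk2 2.18, 2.18 and 2.23. The neuronal enolase Eno2 (0.63) and the lactate exporter Slc16a3 (0.59) were not above the bound on any array.

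Cytoskeletal genes were above the bound in 21 of 21 cases, led after Tmsb10 and Cfl1 by Stmn1 (10.87 ± 0.030), Actg1 (10.69 ± 0.041), Actb (10.59 ± 0.055) and Tuba1a (10.46 ± 0.10). Pfn1 (2.62 ± 0.34) and Myl6 (2.00 ± 0.15) were the dimmest. Chaperone genes were above it in 26 of 27 cases. The chaperonin genes Cct2 (10.91 ± 0.083), Tcp1 (10.83 ± 0.091), Cct3 (10.70 ± 0.14) and Cct5 (10.69 ± 0.084) followed Hspa8. Xbp1, the transcription factor of the unfolded protein response, gave 9.93, 10.34 and 10.15, whereas Ddit3, of its death branch, gave 3.67, 3.49 and 3.80. Hspa1a, the inducible heat shock gene, was not above the bound on any array (0.76, 0.56 and 0.97), and Hspa1b gave 1.94, 2.07 and 2.02.

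Iron and heme genes were above the bound in 16 of 18 cases. Fth1, ferritin heavy chain, averaged 9.65 ± 0.058, Urod 7.80 ± 0.13, Fech 6.92 ± 0.033, Alad 6.42 ± 0.12 and Alas1, the first enzyme of heme synthesis outside red cells, 6.50 ± 0.36. Slc11a2, an iron importer, was above it on replicates 1 and 3 (1.51, 1.31 and 1.80), and Hmox1, which breaks heme down, on none (0.75, 0.97 and 0.98).

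Interferon response genes were above the bound in 22 of 26 cases (against 50.8% of all genes), with a median of 4.35. Ifi35 gave 9.23, 9.21 and 9.18, Oas1a 7.52, 6.95 and 7.30 and the immunoproteasome subunit gene Psmb8 7.07, 6.79 and 7.11. Ifih1, an RNA sensor, averaged 6.57 ± 0.088, Gbp2 6.23 ± 0.20 and Tap1 6.07 ± 0.10. Rsad2, viperin, gave 5.07, 4.95 and 3.80, lowest on replicate 3. The classical antiviral genes Mx2 (1.46, 1.27 and 1.55) and Mx1 (1.26, 1.35 and 1.21) were above the bound on 2 arrays and 1 array. Ifit3 (0.88) and Stat2 (1.08) were above it on none.

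Immediate early genes, which respond within minutes to a stimulus, were above the bound in 14 of 24 cases (58.3%, near the 50.8% of all genes), with a median of 2.05. The count was 9 with the bound raised by 1 and 23 with the 95th percentile of the controls. Myc led with 6.68, 7.07 and 6.98. Ier3 averaged 6.33 ± 0.15, Jund 5.97 ± 0.11 and Ier2 4.62 ± 0.14. Fos gave 3.35, 2.98 and 2.87, Egr1 3.49, 3.12 and 2.89 and Jun 2.83, 2.30 and 2.13, each highest on replicate 1. Egr2 was above the bound on replicate 2 alone (1.07, 1.38 and 1.29). Fosb (0.60), Junb (0.86) and Fosl1 (0.95) were above it on none.

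Genes for secreted cytokines and chemokines were above the bound in 18 of 27 cases (66.7%, against 50.8% of all genes), and in 11 with the bound raised by 1. The myeloid chemokine genes Ccl9 and Ccl6 gave 8.36, 8.27 and 8.64 and 5.77, 5.66 and 6.12, and Mif gave 7.37, 7.24 and 7.50. Il6, the gene of a cytokine also present in the medium, gave 4.38, 4.61 and 4.35 and was above the bound on every array. Il3, Kitl and Csf2 were above it on none, with means of 0.54, 0.83 and 0.72. Ccl5 averaged 4.80 ± 0.087, Ccl3 3.86 ± 0.12, Il1b 3.43 ± 0.19 and Tnf 1.69 ± 0.17. Cxcl10 (1.21, 1.67 and 1.50), Cxcl3 (1.09, 1.62 and 1.48) and Il18 (0.76, 1.72 and 1.54) were above the bound on replicates 2 and 3. Il10 (0.52) and Il1a (0.71) were above it on none.

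Regulators of cell death were above the bound in 14 of 19 cases (73.7%, against 50.8% of all genes). Bcl2l11, which encodes the killer protein Bim, gave 8.05, 7.85 and 7.81, beside the survival genes Mcl1 (8.51, 8.33 and 8.34), Bcl2 (5.47, 5.62 and 5.23) and Bcl2l1 (4.78, 4.87 and 5.16). The other Bcl2l11 probe sets averaged from 0.71 to 4.79, and only the brightest of these was above the bound. The other Bcl2l1 probe sets averaged from 0.58 to 0.84 and were above it on no array. The levels of these genes can thus not be ranked. Casp8 averaged 6.50 ± 0.053 and Birc3 6.23 ± 0.19. Of the p53 targets, Bbc3, which encodes Puma, gave 1.81, 1.70 and 1.65, and Pmaip1, which encodes Noxa, was above the bound on no array (1.11, 1.01 and 0.51). Bmf was above it on replicate 2 alone (1.00, 1.40 and 1.30), and Fas (0.88) and Bik (0.93) on none.

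The array on which most members were highest differed between lists. Of the 10338 genes above the bound on at least 1 array, 34.0% were highest on replicate 1, 32.4% on replicate 2 and 33.5% on replicate 3. Of 13 such mast cell and basophil genes, 10 were highest on replicate 1, and of 15 dendritic and MHC class II genes, 10. Of 16 primary granule genes 11 were highest on replicate 3 and 1 on replicate 2, and of 19 monocyte genes 11 were highest on replicate 3. Of 23 stem and progenitor genes 13 were highest on replicate 2 and 3 on replicate 3. Replicate 2 also had the lowest labelled spike-in signal, 8.14, and its part in these counts was not tested. Lists outside the blood lineages were uneven too. Replicate 1 was highest for 16 of 28 G2 and M phase genes, 15 of 26 chaperone genes and 13 of 22 JAK, STAT and response genes. Replicate 3 was highest for 11 of 18 glycolysis genes. The 33 ribosomal genes were even, with 11, 10 and 12 highest on replicates 1, 2 and 3. The genes of a list come from the same 3 samples, so these counts describe 3 arrays and are not independent observations.

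The widest spread between arrays was found in genes of modest signal. Of the genes above the bound on all 3 arrays, 114 (1.23%) had a range over 1 and 1 gene, Ltf, a range over 2. The median SD was 0.191 for genes with a mean between the bound and 4, and 0.116 for genes over 8. The 12 genes with the widest range were taken from those above the bound on at least 1 array, leaving out genes with provisional names. Ghr, the growth hormone receptor gene, gave 2.47, 2.78 and 0.97, and Cd200r4, a receptor gene of myeloid cells, 3.02, 3.08 and 1.51. Snn gave 3.85, 3.46 and 2.24, Cnot9, of the deadenylase complex, 4.60, 4.46 and 3.02, and Pnrc2 4.42, 4.66 and 3.18. In these 5 genes replicate 3 was the lowest array, by more than 1.

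Cap1, a regulator of actin, gave 4.09, 3.16 and 2.54. Acvr2a, an activin receptor gene, gave 2.14, 2.88 and 1.34, Prkab2 3.61, 3.15 and 2.15, Gbp8 2.78, 2.44 and 1.41 and Dsp, which encodes desmoplakin, 0.76, 1.66 and 0.23. Replicate 3 was the lowest for each of these too. The exceptions among the 12 widest were Ltf, lowest on replicate 2, and Tob2, with 4.06, 5.35 and 5.46, lowest on replicate 1. Among the 200 genes with the widest range of those above the bound on all 3 arrays, replicate 3 was the lowest array for 129.

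**Figure D5:**
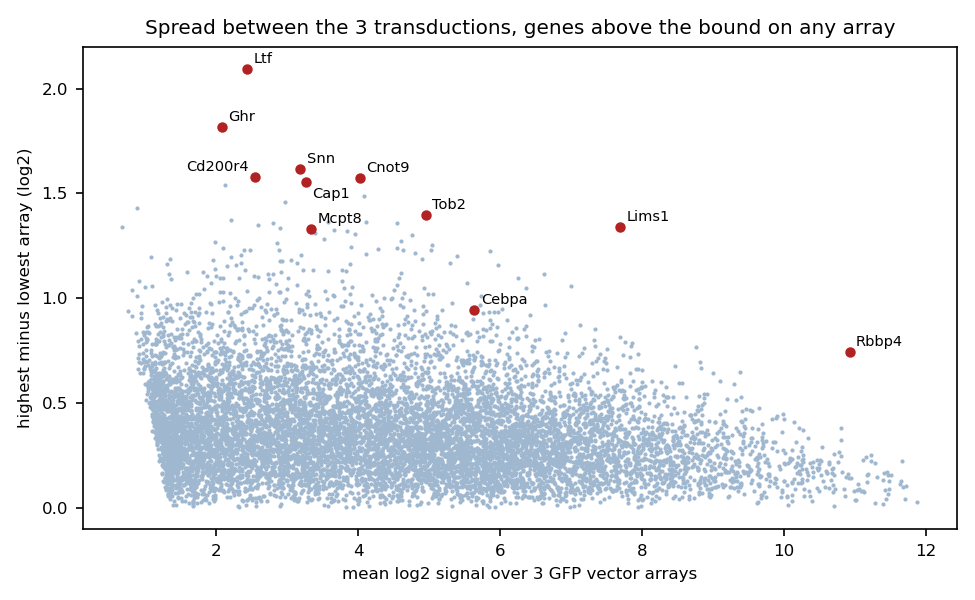
Range of each gene over the 3 GFP vector arrays (y axis, log2, highest minus lowest) against its mean log2 signal (x axis), for genes above the bound on at least 1 array. Most points lie below a range of 1, Ltf reaches 2.09, and Lims1 and Rbbp4 stand apart among brighter genes.

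Among bright genes the spread was small, with exceptions. Rbbp4, a histone chaperone of chromatin complexes, gave 10.50, 11.24 and 11.05 and had the largest range of the 50 brightest genes. Lims1, an integrin-signalling adaptor, gave 6.85, 8.20 and 8.04. For both genes replicate 1 was the lowest array. They were singled out after their values were seen.

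More than 1 probe set was available for 6004 genes above the bound, and in 4268 of them at least 1 probe set was not above it. Counts of genes above the bound rest on the brightest one.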

How the data were processed

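The values are log2 signals deposited by the authors, made with RMA per the submitters' processing notes, whose version and other settings are not given in the sources used here. RMA sets all arrays to 1 distribution, which hides differences in total RNA. The base of the logarithm is not given. The highest value, 12.77, is an intensity of 6966 in base 2 but of 350218 in base e, more than the 65535 of a 16-bit scanner, so base 2 was taken. Whether an offset was subtracted is not given either.

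Of 45101 probe sets, 64 were controls and 9160 others were not listed in the platform annotation used. Of 35890 listed, 932 had several symbols and 13 were controls, which left 34945. Symbols of 34741 were updated to GRCm38.p6 by gene identifier and 204 were kept. They stand for 18193 genes, and 9010 of these had more than 1 probe set, of which the one brightest on average over the 10 arrays was used. The other 7 arrays entered only this choice, the alternative bound and the quantile alternative.

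No test between groups was made. Counts, means and SDs were computed with Python 3.11.15 (pandas 2.3.3, numpy 2.4.6), and the counting code was tested on simulated data. The number of arrays limits the precision. The members and the 34 gene lists were chosen with earlier results of these data known, and gene families and motifs after the signals were seen. Named were the 30 brightest genes, per list up to 6 brightest, up to 3 dimmest, its defining members and those above the bound on 1 or 2 arrays, the genes of the fusion partners and cytokine receptors, and the 12 widest ranges. Provisional gene names were passed over. Promoters are from RefSeq, the first per gene, 250 bases before its start. Alternatives were other bounds, other choices of probe set, further quantile normalization, median subtraction and leaving out each array.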

Additional observations from a re-analysis of the deposited data

How the results depend on the processing

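No paired analysis was possible because the values describe 1 group and come from no test. The count of genes above the bound, 9242, was 7975 with the bound of all 10 arrays (2.04), 8241 with that of probe sets of other organs (1.87), 7551 with the bound raised by 1, 12031 with the 95th percentile of the bacterial controls (0.712), 8529 with all probe sets of a gene averaged, 8614 without suffixed probe sets, 9726 by the mean of the arrays, 9228 after further quantile normalization, and 9379 to 9497 with an array left out. Of 34 lists, those moved by over 1.5 times were as follows. With the 95th percentile of the controls, lineage antigens gave 5 members above the bound in place of 0, erythroid 14, B lymphoid 12, T and NK lymphoid 11, stromal 10, immediate early 23 and other organs 13. With the bound raised by 1, immediate early gave 9, secreted 11, Hox 5 and stromal 1. The bound of all 10 arrays and that of other organs gave Hox 5 and stromal 1. With averaged probe sets stromal gave 1 and other organs 2, without suffixed probe sets stromal gave 1, and by the mean of the arrays they gave 4 and 7. Stromal counts ran from 2 to 4 with an array left out, 4 without replicate 1 (Acta2 and Vcam1 added). Of the 50 brightest genes, 18 remained with averaged probe sets, 26 without suffixed probe sets and 48 to 50 with an array left out. Single gene means moved by more than their SD for 364 of 728 named or listed genes with averaged probe sets and for 135 without suffixed ones. The median SD, 0.168, was 0.169 after quantile normalization and 0.130 to 0.141 with an array left out. Groups of 3 arrays were too small for a check of single outlying arrays. The cause of these shifts was not tested.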

Other observations

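Beyond the lists, gene families differed in the share of members above the bound. All 76 measured mitochondrial ribosomal protein genes were above the bound, with a median of 6.24 and Mrpl39 the brightest at 9.75. All 16 aminoacyl-tRNA synthetase genes were above it, led by Nars (9.45), as were all 10 MCM genes, and 39 of 40 proteasome genes, led by Psma6 (10.64). Of 44 complex I genes 41 were above it, of 57 cytosolic ribosomal protein genes 50, of 21 spliceosomal Sm and LSm genes 19 and of 10 chaperonin genes 8. Zinc finger genes were above it in 194 of 336 cases, and Zfp622 was the brightest at 10.71. In contrast 0 of 39 olfactory receptor genes and 0 of 23 defensin genes were above it, 2 of 32 vomeronasal receptor genes, 7 of 48 keratin genes and 10 of 73 cytochrome P450 genes. Of 84 potassium channel genes 11 were above it, and Kcnn4, a calcium-activated channel of blood cells, was the brightest at 9.32. Of 19 Wnt ligand genes 3 were, and Wnt9a was the brightest at 2.81.

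By type of transcript, 54.9% of 16470 protein-coding genes were above the bound, 10.6% of 1458 long noncoding RNA genes and 16.5% of 133 transcribed pseudogenes. Norad, a noncoding RNA that binds Pumilio proteins, averaged 9.14 ± 0.18, Gas5, a host of small nucleolar RNAs, 7.89 ± 0.10 and Snhg1, another such host, 7.59 ± 0.27 (SD, n = 3). None of 9 measured genes of the Y chromosome was above the bound. The shares on the other chromosomes ran from 44.2% on X to 56.3% on chromosome 19.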
